A study of Homo sapiens with 12 samples.

Results

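The 36 genes described here belong to the Hippo and YAP pathway, and they were taken as a fixed list of 36 of the 20033 protein-coding genes of GENCODE v44. Accessible bins of 100 bp within 50 kb of any transcription start site (TSS) of these genes were collected. This gave 3795 of 709366 bins in the DU-145 table, of which 822 were promoter bins (within 1 kb of a TSS of the gene), 2433 were distal bins (over 1 kb from every protein-coding TSS) and 540 lay at promoters of other genes and were not summed. In the BT-549 table it gave 2879 of 472994 bins, namely 777 promoter bins, 1583 distal bins and 519 at promoters of other genes. Promoter bins were present for 32 genes in DU-145 and 33 in BT-549, and distal bins for 35 genes in each line. DCHS1 and VGLL1 had no accessible promoter bin in either line, VGLL2 and VGLL3 had none in DU-145, and ANKRD1 had none in BT-549. No distal bin was found for VGLL3 in DU-145 or for DCHS1 in BT-549.

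In the Hippo pathway, the kinases STK3 and STK4 (MST2 and MST1), with their partner SAV1, phosphorylate the kinases LATS1 and LATS2 and their cofactors MOB1A and MOB1B. The LATS kinases in turn phosphorylate the coactivators YAP1 and WWTR1 (TAZ), which keeps them out of the nucleus. In the nucleus, YAP1 and TAZ bind the TEAD factors and activate genes such as CCN1 (CYR61), CCN2 (CTGF) and ANKRD1, a response tied to cell density, cell shape and growth, and often altered in carcinomas.

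Accessibility was measured by ATAC-seq, in which the Tn5 transposase inserts adapters into open chromatin. The DU-145 line came from a castration-resistant prostate cancer (CRPC) and the BT-549 line from a triple-negative breast cancer (TNBC), so that each disease is represented by a single line. Cells of both lines carried a tetracycline-inducible short hairpin RNA against MUC1 (tet-MUC1shRNA) and were treated for 7 days with doxycycline (DOX), which induces the hairpin, or with vehicle (0.1% DMSO), giving 4 groups of 3 libraries of 50000 cells. In the labels the vehicle cells are described both as untreated and as given DMSO. No control hairpin was analysed here, so MUC1 silencing and DOX exposure as such cannot be told apart. A hairpin acts on the RNA, and these libraries of genomic DNA hold no direct check of the silencing.

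Summed coverage ranged from 12370094 to 24001285 in the DU-145 vehicle libraries and from 16337380 to 25232000 with DOX. In BT-549 it ranged from 9142900 to 13606129 with vehicle and from 2502510 to 3267024 with DOX. The BT-549 DOX libraries therefore gave the least precise values, and the MACS2 lists held 30450 to 39837 peaks in them against 63271 to 95487 in the other libraries. The share of coverage in bins that both tables hold was 74.1% to 75.0% without and 67.7% to 68.8% with DOX in DU-145, against 81.3% to 82.0% and 84.4% to 85.7% in BT-549. Promoters of 8 of 8 epithelial markers were accessible in DU-145, with a summed level of 455 to 482 CPM (coverage scaled to a common library sum of 1e6) in vehicle and 412 to 470 in DOX. In BT-549, 3 of 8 were accessible (25.9 to 29.3 and 36.8 to 44.5 CPM), with no bin at EPCAM, CDH1, KRT8, KRT18 or KRT19. Of 8 mesenchymal markers, 6 had promoter bins in DU-145 (209 to 233 CPM in vehicle, 190 to 203 in DOX) and 8 in BT-549 (468 to 493 and 522 to 569). Among 4 breast luminal markers all had promoter bins in DU-145 (239 to 245 CPM in vehicle, 187 to 212 in DOX), and ESR1 and PGR had none in BT-549 (58.4 to 59.9 and 42.1 to 58.1). Of 3 blood cell markers, 1 (PTPRC) had bins in DU-145, at 0.216 to 1.36 CPM in vehicle and 4.97 to 6.90 in DOX, and 0 in BT-549. Their part in the results was not tested.

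Some of the sequences behind the results are shown first. The core of the TEAD binding site, GGAATG, and the AP-1 site, TGACTCA, were searched on both strands, in 250 bases before the start of each gene (RefSeq, GRCh38.p14) and in each bin (GRCh38). The end of a TEAD match (TG) can also be the start of an AP-1 match. The 29 members with a promoter sequence had 43 such promoters, of which 9 (20.9%) held the TEAD letters (TAOK3, WWC2, AMOTL2, AJUBA, WTIP, YAP1, VGLL1, CCN2 and ANKRD1) and 0 held the AP-1 letters, against 11.9% and 4.20% of all 35116 promoters. The CCN2 promoter, chr6:131951373-131951622 on the minus strand, had 3 matches and the ANKRD1 promoter, chr10:90921088-90921337 on the minus strand, had 2. They are shown because both are widely used YAP target genes, with the matches in capitals:
CCN2 promoter: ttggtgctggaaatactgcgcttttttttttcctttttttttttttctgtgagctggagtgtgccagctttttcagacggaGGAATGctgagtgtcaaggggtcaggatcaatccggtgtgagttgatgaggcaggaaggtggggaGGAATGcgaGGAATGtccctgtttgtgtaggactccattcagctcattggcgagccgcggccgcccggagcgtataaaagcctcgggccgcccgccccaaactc
ANKRD1 promoter: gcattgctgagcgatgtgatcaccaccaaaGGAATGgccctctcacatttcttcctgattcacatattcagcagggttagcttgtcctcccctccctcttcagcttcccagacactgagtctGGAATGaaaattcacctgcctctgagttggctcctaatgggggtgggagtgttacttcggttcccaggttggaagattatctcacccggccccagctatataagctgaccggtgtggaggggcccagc

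The next 5 bins of 100 bp, on the plus strand, are the highest bins of distal regions that opened or closed with DOX. Capitals mark the AP-1 letters or their reverse complement, and a sequence with no capitals held neither motif. The FRMD6 bin at chr14:51458701-51458800 lies in the noncoding gene FRMD6-AS2, at -30350 bp from the nearest FRMD6 TSS (negative distances are upstream), and the one at chr14:51539701-51539800 lies in an intron of FRMD6, at -14910 bp from an internal TSS. Chr11:102192801-102192900 lies in an intron of YAP1, 6769 bp downstream of a TSS. Chr3:134320901-134321000, 45891 bp downstream of an AMOTL2 TSS, lies in the noncoding gene LINC02004, and chrX:136526101-136526200 is intergenic, at -6065 bp from the VGLL1 TSS:
FRMD6-AS2 bin, opening in DU-145: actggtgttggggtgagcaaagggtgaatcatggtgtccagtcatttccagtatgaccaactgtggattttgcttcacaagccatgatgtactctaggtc
FRMD6 intron bin, opening in DU-145: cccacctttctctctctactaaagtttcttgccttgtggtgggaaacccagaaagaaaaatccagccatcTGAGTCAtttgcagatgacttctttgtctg
YAP1 intron bin, closing in DU-145: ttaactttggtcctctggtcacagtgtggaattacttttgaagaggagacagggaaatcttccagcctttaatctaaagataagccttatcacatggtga
AMOTL2 distal bin, opening in BT-549: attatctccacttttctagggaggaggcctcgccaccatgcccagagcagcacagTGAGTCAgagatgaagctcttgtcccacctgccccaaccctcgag
VGLL1 upstream bin, closing in BT-549: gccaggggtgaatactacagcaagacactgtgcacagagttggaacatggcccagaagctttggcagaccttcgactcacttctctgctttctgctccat

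In DU-145 cells, 17 of 32 member promoters fell with DOX and 1 rose (edgeR's quasi-likelihood test, adjusted p under 0.05 over 14775 promoters, coverage scaled by library sum). Over all promoters the shares were 39.0% lower and 8.27% higher, and the median log2 change was -0.25 for the members against -0.17 for all. Scaling by library sum thus placed most promoters below 0 in DU-145. With TMM factors, which centre the promoters, 8 fell and 3 rose, against 17.9% and 17.1% of all promoters. The 7 promoters lower under every one of the 4 scalings tried (library sums, TMM factors, DESeq2 size factors and library sums with the GC trend removed) were those of SAV1, LATS2, NF2, WWC2, AMOTL2, WWTR1 and TEAD1, and ANKRD1 was the 1 higher under all of them. The DOX libraries lay below the vehicle libraries without overlap at 18 promoters, above at 1, and overlapped at 13, where 43.1% of all promoters lay below and 10.4% above.

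**Figure D1:**
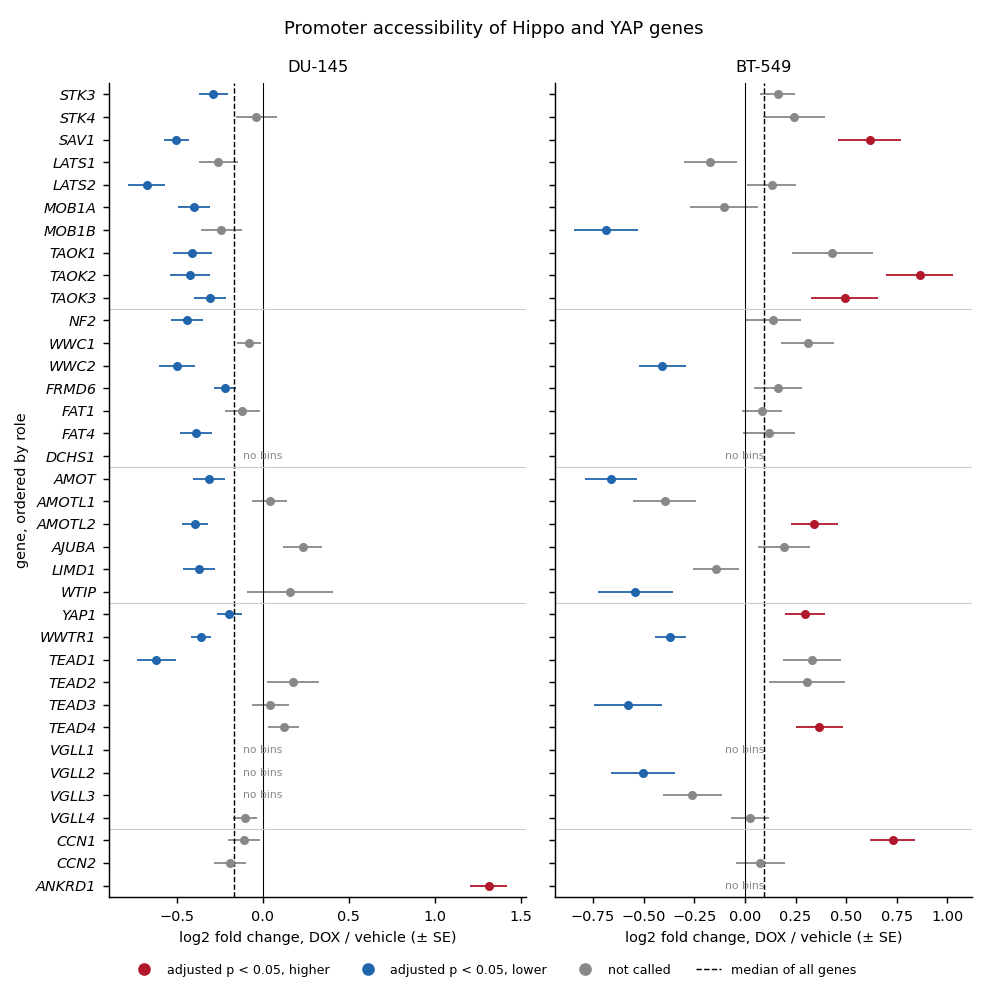
Log2 fold change (DOX over vehicle, x axis, with SE) of the summed promoter coverage of each gene (y axis, ordered by role) in DU-145 and BT-549, with 3 libraries per group. In DU-145, 17 promoters were called lower and ANKRD1 alone was called higher, whereas 7 were called in each direction in BT-549.

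Among the kinases and their partners, 7 of 10 promoters were lower and 0 higher in DU-145. Over all promoters the shares were 39.0% and 8.27%. With TMM factors SAV1, LATS2 and MOB1A alone of these stayed called, where 17.9% of all promoters were lower. The SAV1 promoter, which had the highest level of the members in DU-145 vehicle cells, was at 5.69, 5.64 and 5.23 CPM per bin in vehicle replicates 1, 2 and 3 and at 3.66, 4.0 and 4.02 in DOX. It fell by 0.50 on the log2 scale (SE 0.0711, edgeR adjusted p = 9.5e-08). LATS2, one of the kinases that phosphorylate YAP1 and TAZ, was at 2.27, 2.54 and 2.52 CPM per bin in vehicle and 1.32, 1.68 and 1.58 in DOX, with no overlap between the groups. Its promoter fell by 0.68 (SE 0.108, edgeR adjusted p = 1.1e-06). MOB1A, STK3 and the TAO kinases TAOK1, TAOK2 and TAOK3, which can phosphorylate the MST kinases, fell by 0.29 to 0.42, but with TMM factors MOB1A alone of these 5 remained called. STK4, LATS1 and MOB1B were not called (log2 -0.04, -0.26 and -0.24).

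Among the upstream regulators 4 of 6 promoters fell and 0 rose, against 39.0% and 8.27% of all promoters. NF2, the tumor suppressor merlin that recruits LATS to the membrane, fell by 0.44, WWC2 (a KIBRA homolog) by 0.50, the giant cadherin FAT4 by 0.39 and FRMD6 by 0.22. FAT4 and FRMD6 were not called with TMM factors. WWC1 (-0.08) and FAT1 (-0.12) were not called. Of the 6 scaffold genes, AMOT, AMOTL2 and LIMD1 fell by 0.32, 0.40 and 0.37. AMOTL2 alone of these, an angiomotin that binds YAP1, also fell with TMM factors. AMOTL1, AJUBA and WTIP were at 0.04, 0.23 and 0.16 and not called, although AJUBA was called higher with TMM factors (0.40).

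Among the coactivators and their partners, WWTR1 and TEAD1 fell under each scaling and YAP1 did not. WWTR1 was at 3.56, 3.87 and 3.76 CPM per bin in vehicle and 2.87, 3.06 and 2.78 in DOX, a log2 change of -0.36 (SE 0.060, edgeR adjusted p = 2.3e-06). TEAD1 was at 2.32, 2.36 and 2.07 in vehicle and 1.19, 1.72 and 1.47 in DOX, a change of -0.62 (SE 0.113, adjusted p = 1.1e-05). Neither gene had overlapping groups. YAP1 was at 2.28, 2.84 and 2.75 CPM per bin in vehicle and 2.23, 2.34 and 2.30 in DOX, so that vehicle replicate 1 lay within the DOX libraries. Its log2 change of -0.20 (SE 0.0738, edgeR adjusted p = 0.025) was -0.03 with TMM factors and 0.03 with the GC trend removed, both not called, so that no direction is given for it. TEAD4 was at 1.90, 2.06 and 2.30 in vehicle and 2.02, 2.41 and 2.34 in DOX (log2 0.12, adjusted p = 0.27), and was called higher with TMM factors (0.29). TEAD2, TEAD3 and VGLL4, the last a competitor of YAP1 for TEAD, were not called (0.17, 0.04 and -0.10).

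**Figure D2:**
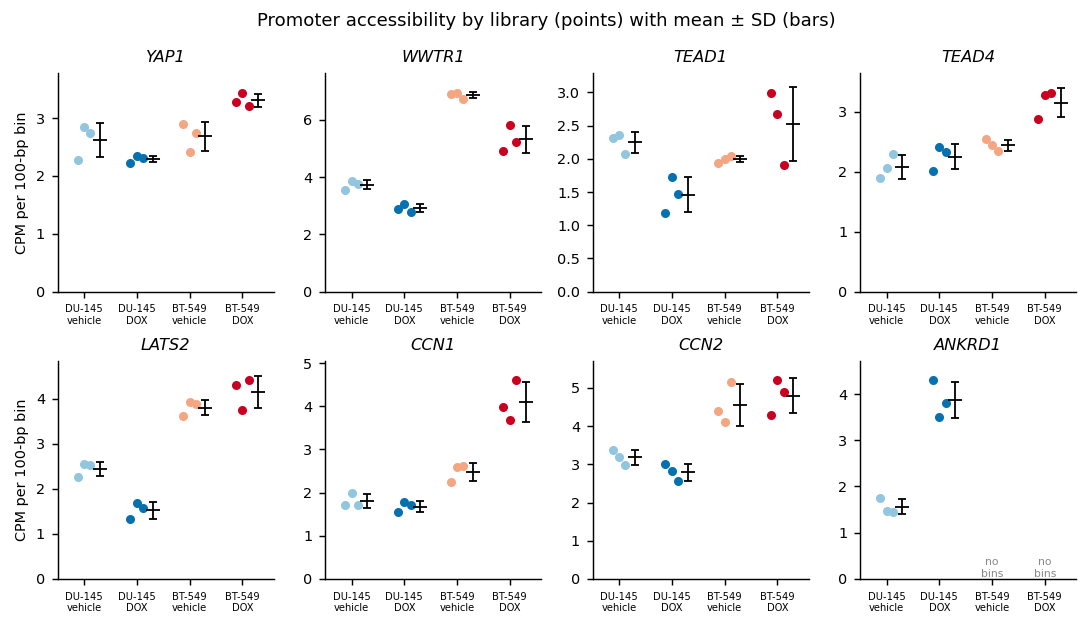
Promoter coverage in CPM per 100-bp bin (y axis, from 0) of YAP1, WWTR1, TEAD1, TEAD4, LATS2, CCN1, CCN2 and ANKRD1 in each library (points) with the mean and SD (bars, n = 3) of the 4 groups. ANKRD1 rose with DOX in DU-145 and had no accessible promoter bin in BT-549, and CCN1 rose in BT-549 and not in DU-145.

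The target genes separated in DU-145. ANKRD1, a muscle ankyrin repeat protein and classical YAP target, was at 1.75, 1.48 and 1.45 CPM per bin in vehicle and 4.30, 3.51 and 3.80 in DOX. This was a log2 change of 1.31 (SE 0.107, edgeR adjusted p = 4.5e-14) and of 1.49 with TMM factors. In the MACS2 lists, the fold enrichment of its promoter peak was 58.9, 55.8 and 40.5 in vehicle and 96.1, 101.0 and 95.1 in DOX libraries, again without overlap. CCN1, a secreted matricellular protein, was at 1.71, 1.99 and 1.71 CPM per bin in vehicle and 1.54, 1.78 and 1.70 in DOX (log2 -0.11, SE 0.0926, adjusted p = 0.33). CCN2, its paralog, was at 3.38, 3.19 and 2.98 in vehicle and 3.0, 2.82 and 2.56 in DOX (log2 -0.19, SE 0.093, adjusted p = 0.086). Neither CCN gene passed the test.

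The change at ANKRD1 covered the bins that hold its TEAD letters. The match starting 220 bases before the start lies in chr10:90921301-90921400, at 6.73, 5.14 and 5.01 CPM in vehicle and 11.9, 10.3 and 10.6 in DOX (log2 0.96, SE 0.116, edgeR adjusted p = 2.0e-10 over all bins). The match 128 bases before the start lies in chr10:90921201-90921300, at 4.20, 3.57 and 3.32 CPM in vehicle and 8.26, 7.53 and 7.91 in DOX, a log2 change of 1.09. Of 13 promoter bins of ANKRD1, 7 were opening DARs (differentially accessible regions, called at a fold change of at least 2 with an adjusted p limit of 1e-05 for DU-145 and 0.01 for BT-549). At CCN2 the bins with the 3 matches, which start 169, 104 and 95 bases before the start, did not pass the test in DU-145 (log2 0.04 and 0.20, adjusted p = 0.90 and 0.29) or in BT-549 (0.40 and 0.25, adjusted p = 0.50 and 0.58). A match of these letters is a description and not a measured TEAD binding site.

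Bins around internal TSSs of FRMD6 and YAP1 also changed with DOX in DU-145. Around an internal FRMD6 TSS, 8 of 10 bins opened in DU-145, the highest being chr14:51554501-51554600, at 0.376, 0.176 and 0.402 CPM in vehicle and 3.51, 2.94 and 2.96 in DOX (log2 3.44, SE 0.281). Around another one, 6 of 8 bins closed, with chr14:51564701-51564800 at 1.55, 1.42 and 1.53 CPM in vehicle and 0.0392, 0.160 and 0.166 in DOX (log2 -3.30, SE 0.367). The summed FRMD6 promoter therefore held changes of both signs. At YAP1, 3 of 5 bins near an internal TSS opened, with chr11:102226001-102226100 at 0.130, 0.214 and 0.464 CPM in vehicle and 2.94, 2.21 and 2.72 in DOX (log2 3.28, SE 0.301). WWC1 had 3 opening promoter bins of 58, STK3 had 1 of 30, and AMOTL2 had 1 closing of 66. Members had 22 opening and 7 closing promoter bins of 822 in DU-145, where 35452 and 11250 of all 709226 bins tested opened and closed. The share over all promoter bins was not counted, so these counts cannot be set against it.

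Distal coverage in DU-145 moved the other way. Of 35 distal sums, 21 rose and 2 fell with DOX, where 50.9% of 17897 genes rose and 11.8% fell. The median log2 change of the members was 0.31 and that of all genes 0.28. With TMM factors 11 rose and 8 fell, against 30.1% and 28.2% of all genes, so that the split between higher and lower sums depended on the scaling. STK4, SAV1, TAOK1, NF2, WWC1, FRMD6, FAT4, WWTR1, VGLL2 and CCN1 rose and TEAD1 and CCN2 fell under all 4 scalings. The DOX libraries lay above all vehicle libraries at 23 sums, below at 4, and overlapped at 8, against 52.1% above and 13.2% below over all genes.

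STK4 had among the lowest distal levels in DU-145 vehicle cells, with 0.151, 0.178 and 0.215 CPM per bin, and was at 0.811, 0.781 and 0.685 in DOX. The log2 change was 2.07 (SE 0.142, edgeR adjusted p = 1.8e-14). SAV1 was at 0.419, 0.462 and 0.513 in vehicle and 1.20, 1.18 and 1.15 in DOX (log2 1.34, SE 0.0864, adjusted p = 3.8e-15). Thus SAV1 had a lower promoter and a higher distal sum in the same libraries. The rise lay in bins absent from the BT-549 table. Over the 3 of its 62 distal bins that both tables hold, the mean level was 1.89 CPM per bin in vehicle and 1.29 in DOX, scaled by the sum over shared bins. FRMD6 was at 0.777, 0.857 and 0.858 in vehicle and 1.44, 1.40 and 1.43 in DOX (log2 0.77, SE 0.0598, adjusted p = 2.9e-13). TEAD1 was at 0.998, 1.03 and 1.02 in vehicle and 0.761, 0.858 and 0.834 in DOX, a log2 change of -0.31 (SE 0.0675, adjusted p = 0.00014), and so was lower at both its promoter and its distal bins. CCN2 was at 1.14, 1.1 and 1.13 in vehicle and 0.858, 0.746 and 0.776 in DOX (log2 -0.51, SE 0.0813, adjusted p = 1.7e-06), whereas its paralog CCN1 rose by 0.62 (SE 0.0603, adjusted p = 6.9e-11).

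**Figure D3:**
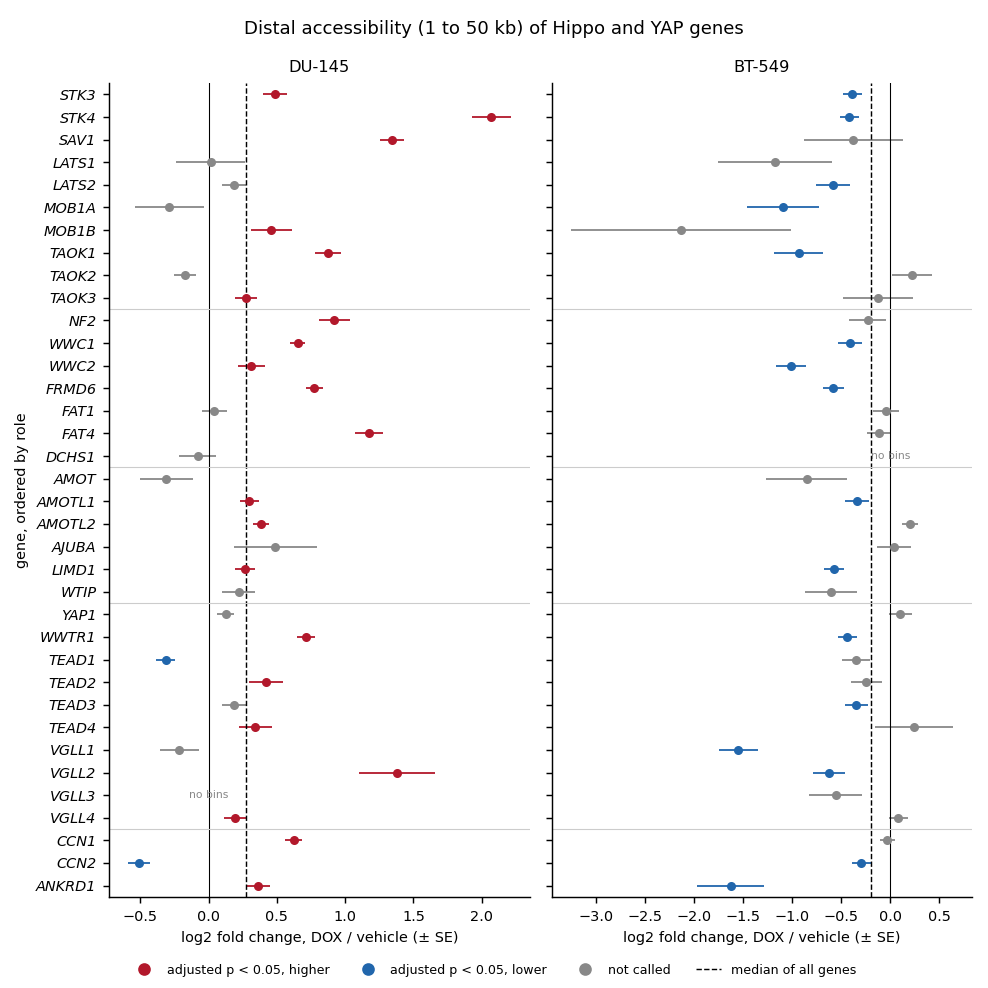
Log2 fold change (DOX over vehicle, x axis, with SE) of the summed distal coverage of each gene within 50 kb (y axis, ordered by role) in DU-145 and BT-549, with 3 libraries per group. Of the called sums, 21 of 23 were higher in DU-145 and 16 of 16 were lower in BT-549, before the shift of all genes in each class is taken out.

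At the resolution of single bins, 243 of the 2433 distal member bins were opening and 40 closing DARs in DU-145. Among all 350387 distal bins tested the shares were 6.36% and 1.96%. Neighbouring bins share fragments and are not independent, and the bins lay in 316 regions, of which 66 held an opening and 19 a closing DAR. The share over all distal regions was not counted, so the region counts cannot be set against a background. With the GC trend removed the DARs were 123 opening and 93 closing, against 3.46% and 3.6% of all distal bins. Without vehicle replicate 2, the deepest of the vehicle libraries, the share of these bins that were DARs fell from 11.6% to 5.96%. WWC1 held 48 opening bins of its 297, FRMD6 40 of 198, WWTR1 22 of 153, AMOTL2 19 of 199 and CCN1 18 of 119, and the remaining ones lay at other members. These genes had many distal bins. The shares were larger at STK4 (7 of 29), SAV1 (14 of 62) and FAT4 (9 of 43). Closing bins lay at 13 genes, with 7 of 84 at TAOK3, 5 of 56 at CCN2 and 4 of 108 at TEAD1. The study itself drew Hippo signaling from the opening DARs of these DU-145 libraries, so a count of opening bins near these genes is not independent evidence. The study called its DARs with DESeq2 and reported fewer of them. Over all bins edgeR with library sums gave 35452 opening and 11250 closing DARs here. With DESeq2 at the same limits the distal member bins gave 55 opening and 21 closing, against 4081 and 3718 of all 350387.

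Among distal regions with at least 3 DARs in one direction, those whose highest bin changed most in DU-145 lay at TAOK3, FRMD6, YAP1 and DCHS1. The intergenic bin chr12:118418601-118418700, at -45743 bp from a TAOK3 TSS, was at 0.0721, 0.0833 and 0.0744 CPM in vehicle and 1.5, 1.69 and 1.83 in DOX (log2 4.31, SE 0.414, edgeR adjusted p = 6.4e-14). The FRMD6-AS2 bin shown above was at 0.423, 0.287 and 0.186 CPM in vehicle and 6.54, 5.34 and 4.83 in DOX (log2 4.17, SE 0.247, adjusted p = 2.2e-23). In both bins the vehicle libraries had little coverage. The FRMD6 intron bin with the AP-1 letters was at 0.469, 0.312 and 0.580 CPM in vehicle and 5.02, 4.44 and 4.85 in DOX (log2 3.48, SE 0.232, adjusted p = 7.6e-21). On the closing side, the YAP1 intron bin was at 1.56, 1.51 and 1.5 CPM in vehicle and 0.168, 0.0824 and 0.298 in DOX (log2 -3.08, SE 0.351, adjusted p = 3.5e-11). A bin in an intron of DCHS1, an atypical cadherin that binds FAT4, at chr11:6638101-6638200, was at 1.93, 1.48 and 1.19 CPM in vehicle and 0.314, 0.261 and 0.284 in DOX (log2 -2.41, SE 0.312). The third closing bin, chr12:118115901-118116000, in an intron of VSIG10 and 36803 bp downstream of a TAOK3 TSS, was at 3.48, 3.62 and 3.58 in vehicle and 1.20, 0.753 and 0.628 in DOX (log2 -2.09, SE 0.206). TAOK3 thus had a strongly opening and a strongly closing region within its window.

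Regions of opposite sign were also seen at other genes. At WWTR1, 6 of 11 bins opened around chr3:149580201-149580300, in an intron of the gene (log2 1.94, SE 0.182), and 2 of 5 closed around chr3:149535001-149535100 (log2 -2.44, SE 0.365). At TEAD1, 4 of 11 intronic bins closed around chr11:12684001-12684100 (log2 -1.77, SE 0.211) and 4 of 6 opened around chr11:12900601-12900700 (log2 1.94, SE 0.233). At ANKRD1, whose promoter opened, 3 of 16 bins closed around chr10:90930501-90930600, at -9463 bp from the TSS (log2 -0.96, SE 0.145), and 4 of 10 opened around chr10:90968901-90969000, at -47863 bp (log2 1.27, SE 0.227). CCN1 opened in 7 of 12 bins around chr1:85607301-85607400, 25887 bp downstream of its TSS (log2 1.20, SE 0.121), and CCN2 closed in 3 of 7 bins around chr6:131966601-131966700, at -15278 bp from the TSS (log2 -1.16, SE 0.144). These regions were chosen after their values were seen.

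**Figure D4:**
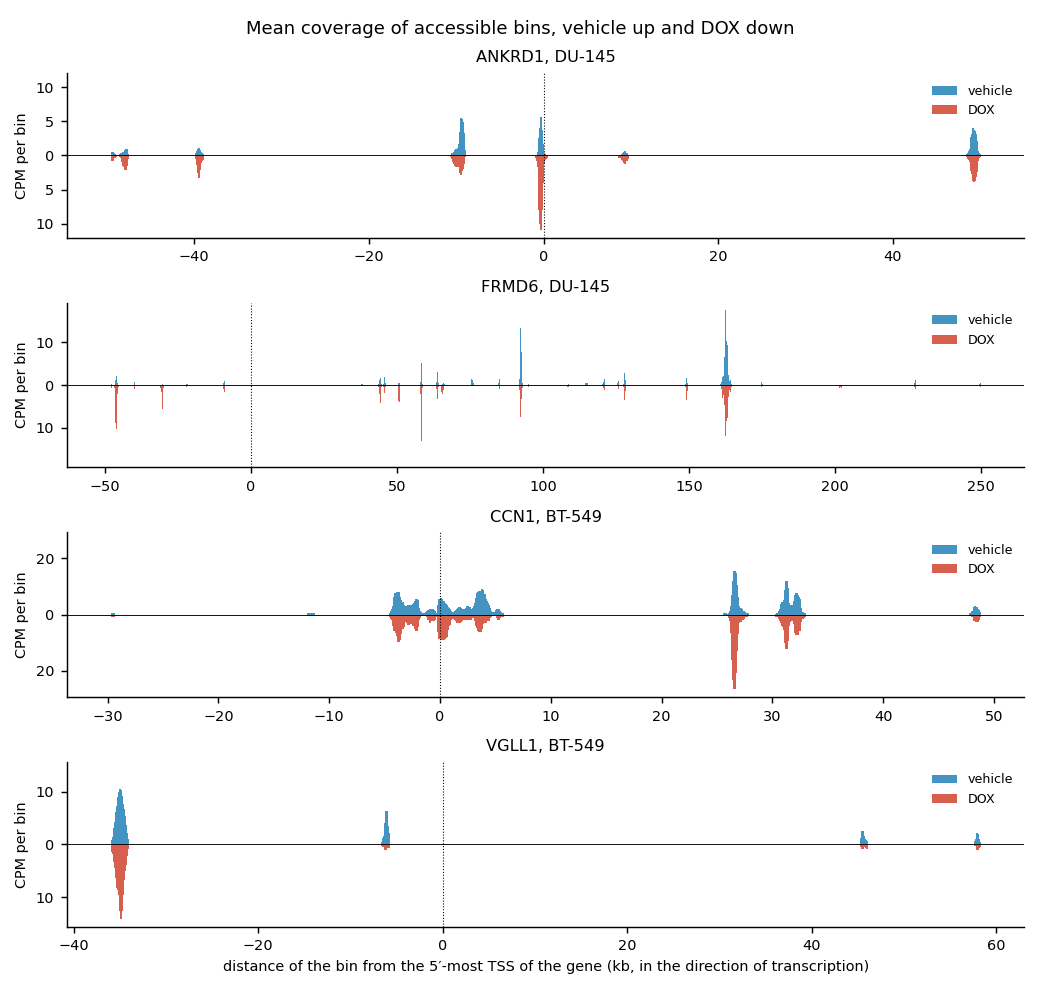
Mean coverage in CPM per bin (y axis, vehicle drawn up and DOX drawn down, n = 3 each) of every accessible bin within 50 kb of a TSS, bins at promoters of other genes included, against the distance from the first TSS in kb (x axis), for ANKRD1 and FRMD6 in DU-145 and for CCN1 and VGLL1 in BT-549. The ANKRD1 promoter and the FRMD6 bins about 30 kb upstream of the gene were higher in DOX, and the VGLL1 bins about 6 kb upstream were lower.

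In BT-549 cells, member promoters were called in both directions, 7 higher and 7 lower of 33, against 18.7% and 6.69% of 14050 promoters. The median log2 change was 0.13 for the members and 0.10 for all promoters. With TMM factors 3 rose and 8 fell, against 12.3% and 10.4%. SAV1, TAOK2 and CCN1 rose and MOB1B, WWC2, AMOT, WTIP, WWTR1, TEAD3 and VGLL2 fell under all 4 scalings. Without BT-549 vehicle replicate 3 the number of called promoters fell from 14 to 9. DOX libraries lay above all vehicle libraries at 12 promoters, below at 7, and overlapped at 14, against 26.1% and 12.4% of all promoters.

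SAV1, which fell in DU-145, was at 2.02, 1.91 and 1.47 CPM per bin in BT-549 vehicle and 2.83, 2.78 and 2.71 in DOX (log2 0.62, SE 0.155, edgeR adjusted p = 0.0029). TAOK2 was at 2.32, 2.51 and 2.23 in vehicle and 5.19, 3.59 and 4.11 in DOX (log2 0.86, SE 0.167, adjusted p = 0.00017). On the other side, MOB1B was at 2.99, 2.88 and 3.19 in vehicle and 2.41, 1.79 and 1.48 in DOX (log2 -0.69, SE 0.159, adjusted p = 0.0013). The kinase group therefore had 3 promoters higher and 1 lower, against 18.7% and 6.69% of all promoters. TAOK3, the other higher one, was not called with TMM factors. LATS2 was at 3.62, 3.92 and 3.87 in vehicle and 4.30, 3.75 and 4.41 in DOX, with overlapping groups (log2 0.13, SE 0.123, adjusted p = 0.47). AMOT, the X-linked angiomotin, was at 4.44, 4.37 and 5.11 in vehicle and 2.95, 3.22 and 2.62 in DOX (log2 -0.66, SE 0.128, adjusted p = 0.00016). WTIP, an Ajuba family LIM protein, and WWC2 fell by 0.54 and 0.41.

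WWTR1, the member promoter with the highest level in BT-549 vehicle cells, was at 6.90, 6.93 and 6.73 CPM per bin there and 4.92, 5.81 and 5.21 in DOX (log2 -0.37, SE 0.0777, edgeR adjusted p = 0.00047; -0.46 with TMM factors). WWTR1 was thus lower with DOX in both lines. YAP1 was at 2.90, 2.41 and 2.75 in vehicle and 3.28, 3.43 and 3.20 in DOX (log2 0.30, SE 0.0999, adjusted p = 0.025), but was not called with TMM factors (0.20). TEAD4 was at 2.54, 2.44 and 2.35 in vehicle and 2.88, 3.28 and 3.32 in DOX (0.37, SE 0.116, adjusted p = 0.017), and it too was not called with TMM factors (0.27). TEAD1 was at 1.94, 2.0 and 2.05 in vehicle and 2.99, 2.67 and 1.91 in DOX, with DOX replicate 3 below the vehicle libraries (log2 0.33, SE 0.143, adjusted p = 0.087). TEAD3 and VGLL2, a TEAD partner known from muscle, fell by 0.58 and 0.50.

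CCN1 was the target gene that rose in BT-549, from 2.24, 2.58 and 2.62 CPM per bin in vehicle to 4.0, 3.69 and 4.60 in DOX (log2 0.73, SE 0.113, edgeR adjusted p = 7.5e-06; 0.64 with TMM factors). CCN2 was at 4.40, 4.11 and 5.16 in vehicle and 4.30, 5.20 and 4.88 in DOX (log2 0.08, SE 0.121, adjusted p = 0.69). ANKRD1 had no accessible promoter bin and no promoter peak in any BT-549 library. CCN1, SAV1 and AMOTL2 each had 4 opening promoter bins, of 27, 17 and 46. WTIP and VGLL4 had 2 closing bins each, of 18 and 55, and AMOT had 1 of 17. Members had 12 opening and 5 closing promoter bins of 777, where 9779 and 13555 of all 472935 bins tested opened and closed. The share over all promoter bins was not counted, so these counts cannot be set against it.

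Of 35 distal sums in BT-549, 16 fell and 0 rose with DOX, where 25.5% of 14296 genes fell and 9.37% rose. By edgeR with TMM factors 7 fell and 2 rose (AMOTL2 and VGLL4), against 15.8% and 16.8% of all genes, and with the GC trend removed 3 fell and 5 rose, against 14.1% and 14.5%. The median log2 change was -0.39 for the members and -0.20 for all genes. WWC2, VGLL1 and ANKRD1 fell under all 4 scalings, and TAOK1, FRMD6, LIMD1 and VGLL2 also with TMM factors. The DOX libraries lay below the vehicle libraries at 20 sums, above at 2, and overlapped at 13, against 34.4% and 12.3% of all genes.

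VGLL1, a vestigial-like protein that binds TEADs in epithelial cells, had no promoter bin, and its distal bins were at 1.60, 1.68 and 1.96 CPM per bin in vehicle and 0.701, 0.390 and 0.677 in DOX. It fell by 1.55 on the log2 scale (SE 0.201, edgeR adjusted p = 1.5e-06). WWC2 was at 1.28, 1.26 and 1.44 in vehicle and 0.737, 0.548 and 0.674 in DOX (log2 -1.01, SE 0.151, adjusted p = 1.1e-05), so that it was lower at promoter and distal bins. LIMD1 was at 1.59, 1.62 and 1.61 in vehicle and 1.18, 1.05 and 1.01 in DOX (log2 -0.57, SE 0.101, adjusted p = 8.9e-05). The distal sum of ANKRD1 rested on 7 bins and fell by 1.63 (SE 0.341, adjusted p = 0.00058).

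Single distal bins gave 58 closing and 11 opening DARs among 1582 tested in BT-549, against 4.21% and 1.88% of 184707 tested. With DESeq2 the member bins gave 12 closing and 6 opening DARs, against 1873 and 1559 of the 184707. Leaving out DOX replicate 1, 2 or 3 lowered the share of DARs from 4.36% to 2.21%, 2.72% or 2.15%. Closing bins lay at 19 genes, with 8 of 118 at STK3, 5 of 59 at AMOTL1 and 5 of 23 at VGLL1. Opening bins lay at AMOTL2 (7 of 151), CCN1 (2 of 119) and YAP1 (2 of 43).

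The intergenic bin chr5:168472501-168472600, 4857 bp downstream of a WWC1 TSS, was at 5.09, 5.76 and 7.06 CPM in vehicle and 0.450, 0.292 and 0.585 in DOX (log2 -3.56, SE 0.444, edgeR adjusted p = 5.9e-11). The VGLL1 upstream bin was at 6.40, 6.43 and 6.13 CPM in vehicle and 0.481, 1.02 and 0.774 in DOX (log2 -2.89, SE 0.377, adjusted p = 3.7e-10). In both, vehicle and DOX libraries did not overlap, but the DOX libraries had little coverage. Mean unscaled coverage was 67.0 in vehicle and 1.27 in DOX at the WWC1 bin, and 72.8 and 2.11 at the VGLL1 bin. A bin in an intron of ROS1, chr6:117309601-117309700, 44092 bp downstream of a VGLL2 TSS, was at 2.72, 2.2 and 2.47 in vehicle and 0.775, 0.400 and 0.306 in DOX (log2 -2.34, SE 0.533). Its mean unscaled coverage was 28.4 in vehicle and 1.33 in DOX. The AMOTL2 bin with the AP-1 letters was at 0.634, 0.621 and 0.353 CPM in vehicle and 5.55, 4.39 and 3.06 in DOX (log2 2.89, SE 0.387, adjusted p = 1.2e-09). A further AMOTL2 region had 3 opening bins among 25, but its highest bin, chr3:134327001-134327100, did not pass the test (11.0, 10.1 and 8.88 CPM in vehicle, 8.79, 13.3 and 12.3 in DOX, log2 0.18, adjusted p = 0.56).

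The motifs were counted in the same bins. In DU-145, the TEAD letters were found in 25 of 243 opening member bins (10.3%) and in 5 of 40 closing ones (12.5%), against 7.65% of all distal member bins and 6.84% of all distal bins. Over all distal DARs the shares were 10.7% opening and 7.36% closing. The AP-1 letters were in 24 of the 243 (9.88%) and 0 of the 40, against 5.75% of member bins, 6.08% of all bins, and 13.9% and 4.08% of all opening and closing DARs. In BT-549, the TEAD letters were in 3 of 58 closing and 1 of 11 opening member bins, and the AP-1 letters in 4 of 58 and 3 of 11. Of all BT-549 distal bins, 6.35% held the TEAD and 4.08% the AP-1 letters. Over all distal DARs of BT-549 the TEAD letters were in 7.02% of opening and 8.03% of closing bins and the AP-1 letters in 8.14% and 7.61%. Median GC was 44% in the opening and 46% in the closing member bins of DU-145, against 46% in all distal member bins and 48% in all distal bins. It was 45% in all distal opening and 46% in all distal closing DARs of that line.

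Between the lines in vehicle, over the bins that both tables hold, 16 of 31 member promoters were higher in BT-549 and 9 were lower, against 34.0% and 40.4% of 13389 promoters. With TMM factors 18 were higher and 8 lower, against 37.5% and 37.0%. The median log2 difference (BT-549 minus DU-145) was 0.31 for the members and -0.06 for all promoters. Copy number was not measured and cannot be told apart from accessibility in this comparison. Per bin, WTIP was at 0.424, 0.394 and 0.308 CPM in DU-145 and 2.15, 2.70 and 2.39 in BT-549 (log2 2.66, SE 0.191, edgeR adjusted p = 4.6e-16). FAT1 was at 1.49, 1.66 and 1.53 in DU-145 and 4.05, 3.69 and 4.29 in BT-549 (1.36, SE 0.0866, adjusted p = 1.2e-17). LATS1 was at 2.68, 2.49 and 2.55 in DU-145 and 5.52, 5.90 and 5.18 in BT-549 (1.11, SE 0.102, adjusted p = 7.6e-13). The promoters of SAV1, FRMD6 and TAOK3 were the most clearly lower in BT-549.

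SAV1 was at 8.84, 8.78 and 8.14 CPM per shared bin in DU-145 vehicle and 2.47, 2.33 and 1.81 in BT-549 vehicle (log2 -1.95, SE 0.0962, edgeR adjusted p = 3.3e-21). FRMD6 was at 8.50, 9.0 and 9.45 in DU-145 and 3.35, 3.65 and 3.51 in BT-549 (-1.36, SE 0.0761). TAOK3 was at 7.22, 5.85 and 5.76 in DU-145 and 2.87, 2.67 and 3.27 in BT-549 (-1.1, SE 0.113). All 10 kinase promoters differed, 5 in each direction, where 34.0% of all promoters were higher in BT-549 and 40.4% lower. Of 7 coactivator promoters 5 were not called, among them YAP1 (-0.14, adjusted p = 0.12), TEAD1 (-0.05, adjusted p = 0.65) and TEAD4 (0.14, adjusted p = 0.16). With TMM factors TEAD4 (0.21) and VGLL4 (0.18) were called higher in BT-549. WWTR1, LATS2, CCN1 and CCN2 were higher in BT-549 by 0.50, 0.50, 0.32 and 0.46.

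**Figure D5:**
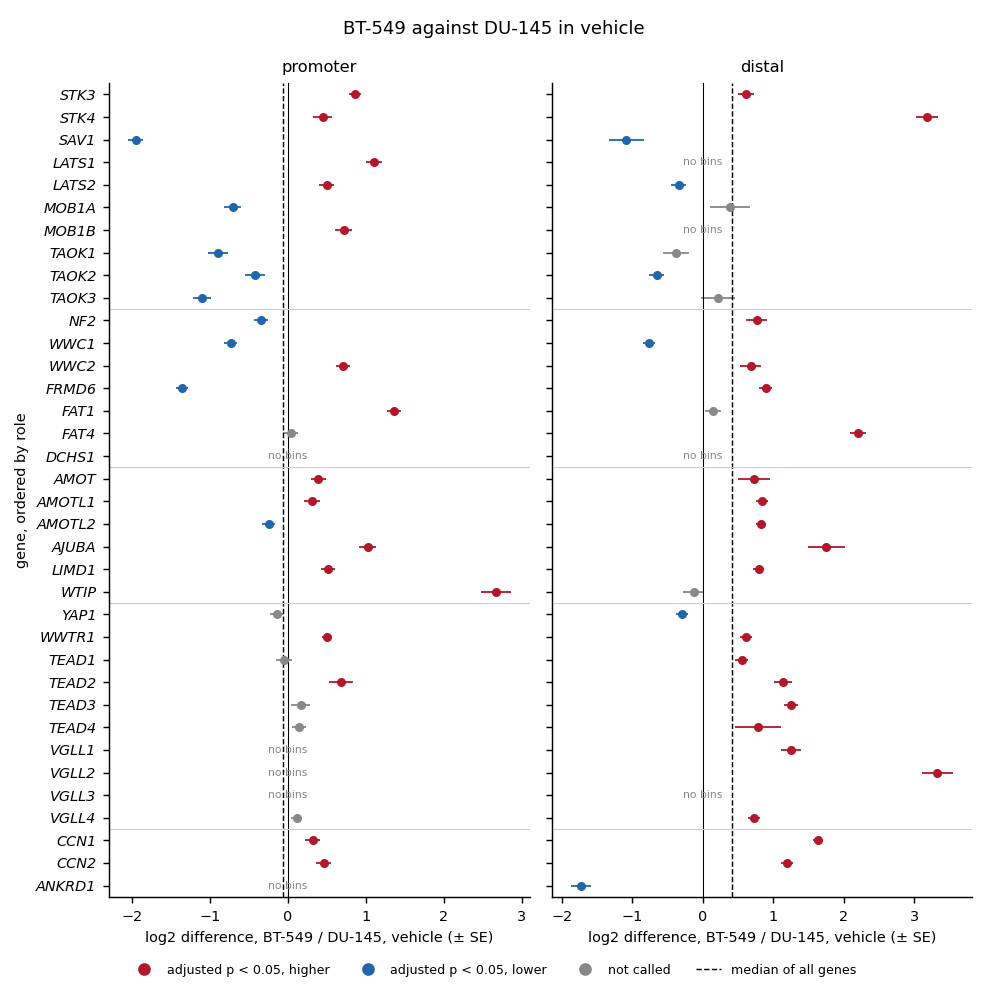
Log2 difference between the lines in vehicle (BT-549 over DU-145, x axis, with SE, n = 3 libraries each) of promoter and distal coverage over bins held by both tables, for each gene (y axis, ordered by role). WTIP lay farthest to the right and SAV1 farthest to the left among the promoters.

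Distal sums over shared bins were higher in BT-549 at 21 of 32 genes and lower at 6, against 52.8% and 22.7% of 12979 genes. With TMM factors 16 were higher and 8 lower, against 36% and 35.5%. The median difference was 0.72 for the members and 0.42 for all genes. CCN1 was at 1.65, 1.62 and 1.65 CPM per bin in DU-145 and 4.96, 5.14 and 5.10 in BT-549 (log2 1.63, SE 0.0691, edgeR adjusted p = 1.8e-17). STK4 was at 0.326, 0.405 and 0.444 in DU-145 and 3.75, 3.59 and 3.30 in BT-549 (3.18, SE 0.158, adjusted p = 4.8e-16), and FAT4 was higher by 2.21 (SE 0.111), from 0.616, 0.596 and 0.735 to 3.21, 2.92 and 2.77. CCN1 also had the highest distal level of the members in BT-549 vehicle cells. ANKRD1, over 7 shared bins, was at 5.19, 4.55 and 4.58 in DU-145 and 1.60, 1.32 and 1.37 in BT-549 (-1.73, SE 0.142, adjusted p = 1.8e-11). WWC1 was lower by 0.77 (SE 0.0814), from 3.42, 3.63 and 3.58 to 2.03, 1.96 and 2.29, and TAOK2 by 0.66 (SE 0.111), from 3.71, 3.90 and 3.65 to 2.42, 2.65 and 2.05.

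Whether the lines responded differently to DOX was tested over shared bins with an interaction term. At promoters the effect in BT-549 exceeded that in DU-145 for 12 of 31 members and was below it for 5, against 22.3% and 8.35% of all promoters, and with TMM factors for 7 and 6, against 13.5% and 11.7%. SAV1, LATS2, TAOK2, TAOK3, AMOTL2, TEAD1 and CCN1 were higher and MOB1B, AMOT, AMOTL1, WTIP and TEAD3 lower under every scaling. The difference was 1.12 (SE 0.199, edgeR adjusted p = 3.3e-05) for TAOK2, 0.95 (SE 0.153, adjusted p = 6.4e-06) for SAV1 and 0.67 (SE 0.147, adjusted p = 0.00052) for CCN1. Opposite calls in the lines, lower in DU-145 and higher in BT-549, were made for SAV1, TAOK2, TAOK3, AMOTL2 and YAP1, 5 of the 17 lower promoters of DU-145 and 5 of the 7 higher ones of BT-549. With TMM factors SAV1 alone of these 5 was called in both lines. WWC2, AMOT and WWTR1 were lower in both lines. With TMM factors WWC2 and WWTR1 stayed called in both, but AMOT was not called in DU-145 (log2 -0.15). Of all genes tested in both, 19.3% of the lower promoters of DU-145 were higher in BT-549 and 5.58% were lower, and 41.9% of the higher and 36.1% of the lower promoters of BT-549 were lower in DU-145.

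Per shared bin, SAV1 was at 6.23, 6.65 and 6.72 CPM in DU-145 DOX and 3.35, 3.24 and 3.22 in BT-549 DOX, so that the lines stood closer to each other than in vehicle. TAOK2 was at 4.56, 4.28 and 3.77 in DU-145 vehicle, 3.26, 3.44 and 3.46 in DU-145 DOX, 3.11, 3.34 and 2.96 in BT-549 vehicle and 6.64, 4.60 and 5.25 in BT-549 DOX. Its order between the lines was thus reversed with DOX. CCN1 was at 2.28, 2.69 and 2.30 in DU-145 vehicle and 2.27, 2.58 and 2.48 in DU-145 DOX, against 2.73, 3.15 and 3.23 and then 4.73, 4.30 and 5.45 in BT-549. On the lower side, WTIP differed by -1.1 (SE 0.325, edgeR adjusted p = 0.0082), with 0.348, 0.482 and 0.538 CPM in DU-145 DOX and 1.60, 1.29 and 1.26 in BT-549 DOX. TEAD3 differed by -0.79 (SE 0.210, adjusted p = 0.0036), going from 1.97, 2.48 and 2.60 to 2.10, 2.83 and 2.94 in DU-145 and from 2.10, 2.82 and 3.02 to 1.39, 1.5 and 2.17 in BT-549. AMOTL1 differed by -0.63 (SE 0.184, adjusted p = 0.0079), with 2.85, 3.0 and 3.16 in vehicle and 3.76, 3.28 and 3.06 in DOX in DU-145, and 3.65, 3.48 and 4.04 and then 2.06, 2.54 and 3.38 in BT-549. The BT-549 groups of AMOTL1 and TEAD3 spread widely, and DOX replicate 3 was the highest of its group in both.

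At distal sums the effect in BT-549 was below that in DU-145 for 19 of 32 members and above it for 0, against 39.5% and 4.33% of all genes. The class as a whole was shifted, with a median of -0.47 for all genes and -0.71 for the members. By edgeR with TMM factors 9 were lower and 4 higher (STK3, TAOK2, VGLL4 and CCN2), against 18.1% and 17.7%. STK4, FRMD6, FAT4, LIMD1, WWTR1, VGLL1 and VGLL2 were lower under every scaling. FRMD6 was at 1.14, 1.25 and 1.29 CPM per shared bin in DU-145 vehicle and 4.08, 3.96 and 4.18 in DU-145 DOX, but at 2.32, 2.41 and 2.08 and then 1.55, 1.66 and 1.57 in BT-549, a difference of -2.25 (SE 0.128, edgeR adjusted p = 1.3e-15). STK4 reached 1.52, 1.42 and 1.40 in DU-145 DOX and was at 2.23, 2.79 and 2.41 in BT-549 DOX (-2.40, SE 0.234, adjusted p = 2.8e-10). WWTR1 went from 1.42, 1.44 and 1.29 to 2.27, 2.31 and 2.31 in DU-145 and from 2.17, 2.05 and 2.13 to 1.5, 1.51 and 1.59 in BT-549 (-1.19, SE 0.12, adjusted p = 5.6e-10). Of the 21 distal sums higher with DOX in DU-145 and the 16 lower in BT-549, 11 genes were on both lists, and with TMM factors TAOK1, FRMD6 and VGLL2 were. Over all genes tested in both, the shares on both lists were 26.9% of the DU-145 list and 52.9% of the BT-549 list. These sums cover the bins of each table, which differ: ANKRD1 is on both lists, but over its 7 shared distal bins its mean level was 4.78 CPM per bin in vehicle and 2.70 in DOX in DU-145, and 1.43 and 0.461 in BT-549. Over shared distal bins TAOK1 also fell in both lines, from 2.783 to 2.486 in DU-145 and from 2.115 to 1.496 in BT-549. STK3 rose in both, from 1.518 to 1.85 and from 2.316 to 2.834. The other genes on both lists had higher means with DOX in DU-145 and lower ones in BT-549 over shared bins.

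Other lists of the pathway were read in the same fits. Of 30 other genes of the kinase and scaffold side (STRIPAK subunits, RASSF and MAP4K proteins and others), 28 had promoter bins in DU-145, where 14 fell and 2 rose with DOX, and 5 rose and 7 fell with TMM factors, where 39.0% of all promoters fell and 8.27% rose, and 17.1% rose and 17.9% fell with TMM factors. STRN and STRN3, striatins of the STRIPAK phosphatase complex that acts on the MST kinases, fell by 0.54 and 0.45 (edgeR adjusted p = 1.7e-08 and 2.1e-08). Their distal sums rose in 18 and fell in 3 of 28 cases (10 and 7 with TMM factors), against 50.9% and 11.8% of all genes (30.1% and 28.2%), with PTPN14, a phosphatase that binds YAP1, higher by 1.23 (SE 0.0695) and TNIK by 0.97 (SE 0.0656). In BT-549, 6 promoters rose and 3 fell (6 and 5 with TMM factors), against 18.7% and 6.69% of all promoters (12.3% and 10.4%), with STRN4 higher by 1.08 (SE 0.21). Distal sums there rose in 4 and fell in 3 cases (5 and 1 with TMM factors), against 9.37% and 25.5% of all genes (16.8% and 15.8%). Median changes at DU-145 promoters were -0.25 for this list and -0.17 for all promoters.

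Of 20 other genes known as YAP targets, 18 had promoter bins in DU-145, of which 4 rose and 7 fell (5 and 4 with TMM factors), against the same shares of all promoters as above, 8.27% and 39.0% (17.1% and 17.9%). EDN1 (endothelin 1) rose by 0.80 (SE 0.12, edgeR adjusted p = 4.5e-07), and IGFBP3, THBS1 and RBMS3 were the other higher ones. NT5E, the ectonucleotidase CD73, had the smallest adjusted p, falling by 0.83 (4.8e-10). Distal sums rose in 14 and fell in 1 of 20 cases in DU-145 (7 and 5 with TMM factors), against 50.9% and 11.8% of all genes. In BT-549, 18 of the 20 had promoter bins. THBS1 was the 1 target promoter that rose (0.54) and CCDC80 (-0.96) and NT5E (-0.36) fell, against 18.7% and 6.69% of all promoters. With TMM factors these calls stayed and ASAP1 was also lower (-0.35), against 12.3% higher and 10.4% lower of all promoters. Distal sums there rose in 4 and fell in 4 cases (6 and 2 with TMM factors), against 9.37% and 25.5% of all genes. THBS1, thrombospondin 1, was thus called higher at its promoter in both lines and NT5E lower in both, chosen here after their values were seen. Between the lines in vehicle, 10 of 16 target promoters were higher in BT-549 and 4 lower, with a median difference of 0.62, and 11 of 26 kinase and scaffold promoters were higher and 7 lower, against 34% and 40.4% of all promoters and a median difference of -0.06.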

How the data were processed

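The authors aligned ATAC-seq fragments of the 12 libraries to GRCh38 with BWA, discarded duplicates (Picard) and made a peak list per replicate with MACS2 2.2.7.1 at a q-value of 0.05. Regions found in at least 3 replicates of a line were cut into bins of 100 bp. What the authors deposited for each bin is its mean fragment coverage, used as estimated counts here and not normalized for depth. The deposited peak lists, made per replicate and not pooled, hold the fold enrichment and the −log10 p and −log10 q that MACS2 gives.

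Bin values were summed per gene over promoter and distal bins and rounded, after which edgeR 4.0.16 (quasi-likelihood test, robust, R 4.3.3) was run on all protein-coding genes, or on all bins with a total of at least 10, with the library sum as library size and Benjamini-Hochberg adjustment over all features. Genes were called at an adjusted p of 0.05. Levels (CPM per bin) are coverage scaled to a library sum of 1e6 and divided by the number of bins. Comparisons across the lines used bins that both tables hold. The fits were tested on simulated data.

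Alternatives were TMM factors, DESeq2 1.42.0, limma-trend (limma 3.58.1, log2 of CPM plus 1), removal of the GC trend, sums over the whole tables, a promoter of 500 bp, no filter on low bins, a DAR limit of 0.05, a replicate block and leaving out each library.

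Library sums of 2502510 to 25232000 set the precision. The study describes its ATAC-seq replicates as biologically independent, while the labels do not say whether they were separate cultures. The p-values measure the spread between these libraries. Within a group, any 2 libraries had equal values in at most 1.65% of bins, so none was treated as a repeat deposit. The members, lists and tests were chosen with earlier results of these data known. Values in every library are given for YAP1, WWTR1, TEAD1, TEAD4, LATS2, CCN1, CCN2 and ANKRD1 promoters, for up to 3 members per direction, class and comparison by smallest adjusted p, and for up to 3 distal regions per direction and line, with at least 3 DARs, by the change of their highest bin. One of the cell type marker lists is not reported here.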

Additional observations from a re-analysis of the deposited data

Results flagged for a closer look

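The DOX effect differed between the lines, by the interaction test of edgeR over shared bins, at the following members. Values are the log2 effect in BT-549 minus that in DU-145, with library sums as library sizes. Over all genes the median of this difference was 0.14 at promoters and -0.47 at distal sums.

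Among the promoters of the kinases and their partners, the difference was 1.12 for TAOK2, 0.952 for SAV1, 0.646 for TAOK1, 0.642 for TAOK3, 0.633 for LATS2, 0.342 for STK3 and -0.605 for MOB1B. Upstream regulators were NF2 (0.408) and WWC1 (0.452), and scaffolds were AMOTL2 (0.584), AMOT (-0.526), AMOTL1 (-0.629) and WTIP (-1.10). Among the coactivators, targets and their partners the values were 0.80 for TEAD1, 0.666 for CCN1, 0.328 for YAP1 and -0.790 for TEAD3. Of these, STK3, TAOK1, NF2, WWC1 and YAP1 were not called with TMM factors.

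Each called distal difference was negative. It was -2.40 for STK4, -0.766 for LATS2, -1.32 for NF2, -0.812 for WWC1, -2.25 for FRMD6 and -1.54 for FAT4. Scaffold genes gave -0.796 for AMOTL1, -0.272 for AMOTL2, -1.10 for LIMD1 and -0.702 for WTIP. Coactivators and partners gave -0.497 for YAP1, -1.19 for WWTR1, -0.411 for TEAD1, -0.859 for TEAD2, -0.739 for TEAD3, -2.18 for VGLL1 and -1.82 for VGLL2, and targets gave -0.785 for CCN1 and -0.859 for ANKRD1. With TMM factors STK4, NF2, FRMD6, FAT4, LIMD1, WWTR1, VGLL1, VGLL2 and CCN1 were still called, while AMOTL2 turned to 0.22 and TEAD1 to 0.08, both not called.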

How the results depend on the processing

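The number of member promoters called in DU-145, 18, was 11 with TMM factors and with DESeq2 (3 higher and 8 lower in each). Of all 14775 promoters, 2531 were higher and 2639 lower with TMM factors, and 2380 and 2554 with DESeq2. The number of distal sums called in BT-549, 16, was 9 with TMM factors and with DESeq2, and 8 with the GC trend removed. Of all 14296 distal sums there, 2397 were higher and 2254 lower with TMM factors. The counts were 2284 and 1986 with DESeq2, and 2072 and 2017 with the GC trend removed. Leaving out 1 library gave 9 to 14 called promoters in BT-549 in place of 14, with 9 without vehicle replicate 3. Without that replicate 1872 of all 14050 promoters were higher and 600 lower, in place of 2625 and 940. The share of distal member bins that were DARs, 11.6% in DU-145, was 37.6% at an adjusted p limit of 0.05, 3.12% with DESeq2, 3.90% with limma-trend and 5.96% to 9.37% with 1 library left out. In BT-549 it was 4.36%, and 9.23%, 1.14%, 2.53% and 2.15% to 3.79% under the same settings. Of all 350387 distal bins tested in DU-145, 80388 opened and 18634 closed at the limit of 0.05. The counts were 4081 and 3718 with DESeq2 and 7043 and 2511 with limma-trend. Of 184707 in BT-549, 6130 opened and 13969 closed at the limit of 0.05. There the counts were 1559 and 1873 with DESeq2 and 1544 and 5600 with limma-trend. The YAP1 promoter log2 fold change in DU-145 DOX against vehicle became 0.0341 (adjusted p = 0.752) with the GC trend removed. The cause of these changes was not tested. With the replicate block, 18 promoters and 23 distal sums were called in DU-145 and 15 and 17 in BT-549, 25 and 27 between the lines and 17 and 17 for the interaction, and the block changed no call of the genes named. Over all genes the block gave 1327 higher and 6074 lower promoters in DU-145, in place of 1222 and 5764. In BT-549 it gave 2594 and 965, in place of 2625 and 940. Distal sums over all genes were 9082 higher and 2155 lower in DU-145 and 1296 and 3534 in BT-549 with the block. Between the lines it gave 4519 higher and 5402 lower promoters, and for the interaction 3111 and 1158. Same-numbered libraries did not deviate together at single bins (correlations -0.0532 to 0.083 in DU-145 and 0.000454 to 0.0446 in BT-549). Single bins hold little coverage (median 2.96 to 17.35 by library), so this cannot exclude a pairing. The replicate numbers were not taken to pair the samples. With 1 library left out, the genes named kept call and direction in 442 refits, lost the call in 17 and gained it in 3. Low coverage of the BT-549 DOX libraries limits what can be detected in that line.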
